A study of Cricetulus griseus with 27 samples.

Results

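The Sfmbt2-type repeat cluster is a group of rodent microRNAs named miR-297, miR-466, miR-467, miR-669 and, as a look-alike, miR-1187. Its entries were chosen by name alone, under any species prefix, and numbered 81 of the 4815 mature miRNA entries in the count table. Of these, 72 carried mouse names (mmu), 7 rat names (rno) and 2 human names (hsa), and 0 of the 351 Chinese hamster entries (cgr) matched. Counts were found for 18 of the 81 entries, 14 of them mouse and 4 rat. The other 63, which include miR-466h-5p, had none in any library.

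In the mouse, most of these miRNAs are made from repeated hairpins in an intron of Sfmbt2, a Polycomb gene that is imprinted and matters for the placenta. Many of the mature sequences are rich in GU repeats, and members differ from each other by few bases. A mature miRNA comes from the 5p or the 3p arm of its hairpin and guides silencing of messages that pair with its seed. In Chinese hamster ovary (CHO) cells the cluster is known for miR-466h-5p, which is linked to apoptosis in nutrient-depleted cultures and represses anti-apoptotic genes. The hamster gene table used here names Sfmbt2 but names none of its miRNA genes after these families.

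Small RNA was counted in 27 libraries from CHO-K1 cells, an ovary-derived hamster line used for protein production, and from 2 kinds of vesicle they release. Exosomes are small vesicles of endosomal origin, and microparticles (MPs) are shed by outward budding of the cell surface and tend to be larger. The 9 groups of 3 were exosomes, MPs and cells from an osmotic culture (60 mM NaCl added), an ammonia culture (9 mM NH4Cl added) and a standard culture, all in 15 mL of medium with 6 mM glutamine and harvested on day 3. All groups share the 1 cell line, and the labels call the replicates biological without saying whether the same flasks gave all 3 fractions. No source used here says how the fractions were separated. The 9 standard libraries were made with a NextFlex Combo-Seq kit and pooled, and the 18 stressed libraries with a TruSeq Small RNA kit in another pool. A difference between a stressed and the standard culture thus cannot be told apart from one between kits or pools.

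Library totals ran from 26516 to 10374430 counts. The standard cell libraries were shallow, at 132154 to 180764 counts, and the osmotic exosome libraries shallower still at the low end, at 26516 to 158836. Of 13 entries for miRNAs of blood, liver, muscle, neural and epithelial cells, 3 were at 0 (cgr-miR-142-3p, mmu-miR-124-3p and mmu-miR-223-3p) and 10 had counts, led by the epithelial rno-miR-200c-3p with 230 counts in 9 libraries and a group mean of up to 22.3 CPM. The list summed to 16.6 to 55.1 CPM in standard exosomes, 13.4 to 40.7 CPM in standard MPs and 0 to 13.3 CPM in standard cells. The lowest MP library was thus barely above the highest cell library. In the shallow standard cells 1 of the 13 entries had counts, and in cell replicate 3 a level of 13.3 CPM is 2 counts. Whether the list differs between vesicles and cells, and its part in the results below, was not tested. In the stressed groups it reached at most 26.0 CPM. CPM here is a count divided by its library's total, times 1000000. It is a share, so in these bulk samples fewer cells or vesicles of a kind and less RNA in each cannot be told apart. Intervals and floors cover counting error only.

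The cluster's counts sat in very few entries. All 27 libraries together gave 29530 counts, of which mmu-miR-466i-5p alone gave 28196. By family, miR-466 had counts for 11 of 33 entries and 29147 counts in sum. The single miR-1187 entry had 348 counts. The miR-669 family, whose mouse member miR-669a restrains the muscle regulator MyoD, had 23 counts over 3 of 28 entries. The miR-467 family, which in the mouse acts on the angiogenesis inhibitor thrombospondin-1, had 7 counts over 2 of 13 entries, and miR-297 had 5 counts in 1 of 6 entries. Only 8 of the 81 entries reached 10 or more counts over the 27 libraries.

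Counts were uneven between entries named for the 5p and the 3p arm, and the arm name with more counts changed from hairpin to hairpin. The 32 entries named 5p held 28203 counts in 3 entries, and the 32 named 3p held 961 counts in 8 entries. For the mouse hairpin miR-466i, the 5p entry had 28196 counts and the 3p entry 24. For miR-466f it was the other way, with 0 counts for the 5p entry and 660 for the 3p entry. The same held for rno-miR-466b, with 0 and 96 counts, and for miR-669c, with 0 and 15. These are mouse and rat names, and how reads of near-identical members were assigned is not stated. Which arms the hamster cells use was thus not tested.

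The apoptosis-linked mmu-miR-466h-5p, present as 1 entry, had 0 counts in all 27 libraries. Over the summed 66597290 counts, a count of 0 allows up to 3 counts, or 0.0450 CPM. By group this floor was 12.7 CPM in osmotic exosomes, 1.22 in osmotic MPs and 0.112 in osmotic cells. It was 6.32 CPM in ammonia exosomes, 0.400 in ammonia MPs and 0.168 in ammonia cells. In standard culture it was 0.401 CPM in exosomes, 0.918 in MPs and 6.47 in cells. The miRNA was thus not detectable at these depths, and the depth bounds it least tightly in the osmotic and ammonia exosomes and the standard cells. The entry named for the other arm of its hairpin, mmu-miR-466h-3p, had 131 counts. How reads of near-identical members were assigned is not stated, so values of single entries, 0 included, are uncertain.

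Summed over all 81 entries, the cluster took a visible share of counts in standard cells and little elsewhere. In standard culture it came to 618 ± 43.1 CPM in exosomes, 1673 ± 663 CPM in MPs and 26276 ± 4579 CPM in cells (SD, n = 3 each), which is 0.0618%, 0.167% and 2.63% of counts. In osmotic culture the sums were 609 ± 123.4 CPM in exosomes, 80.7 ± 97.1 CPM in MPs and 85.9 ± 12.9 CPM in cells. In ammonia culture they were 116 ± 192 CPM in exosomes, 160 ± 191 CPM in MPs and 224 ± 20.1 CPM in cells. The stressed MPs and the ammonia exosomes had an SD larger than their mean.

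The sum was nearly the level of mmu-miR-466i-5p. That entry gave 89.4% of the cluster's counts in standard exosomes, 93.3% in standard MPs and 98.3% in standard cells, and between 94.6% and 100% in the stressed groups. Without it the sums fell to 64.6 ± 18.5 CPM in standard exosomes, 113 ± 41.9 CPM in standard MPs and 452 ± 175 CPM in standard cells (SD, n = 3 each). The number of entries with any count was 11 in standard exosomes, 10 in standard MPs and 16 in standard cells, although the cell libraries were the shallowest of the 3. In the 18 stressed libraries 4 entries had counts, despite a summed depth of 55386850 counts against 11210440 in the 9 standard libraries. These were mmu-miR-466i-5p, mmu-miR-1187, mmu-miR-466h-3p with 4 counts and mmu-miR-466i-3p with 1.

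In standard culture mmu-miR-466i-5p was much lower in vesicles than in cells. It stood at 599, 548 and 514 CPM in the 3 exosome libraries, at 2103, 875 and 1703 CPM in the 3 MP libraries and at 30911, 23118.5 and 23441 CPM in the 3 cell libraries. No exosome library reached any MP library, and no MP library reached any cell library. Of the 351 entries tested below, 22.8% were lower without overlap in exosomes than in cells, 18.8% in MPs than in cells and 19.4% in exosomes than in MPs. By mean level it ranked 95 among all entries in exosomes, 58 in MPs and 10 in cells.

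**Figure D1:**
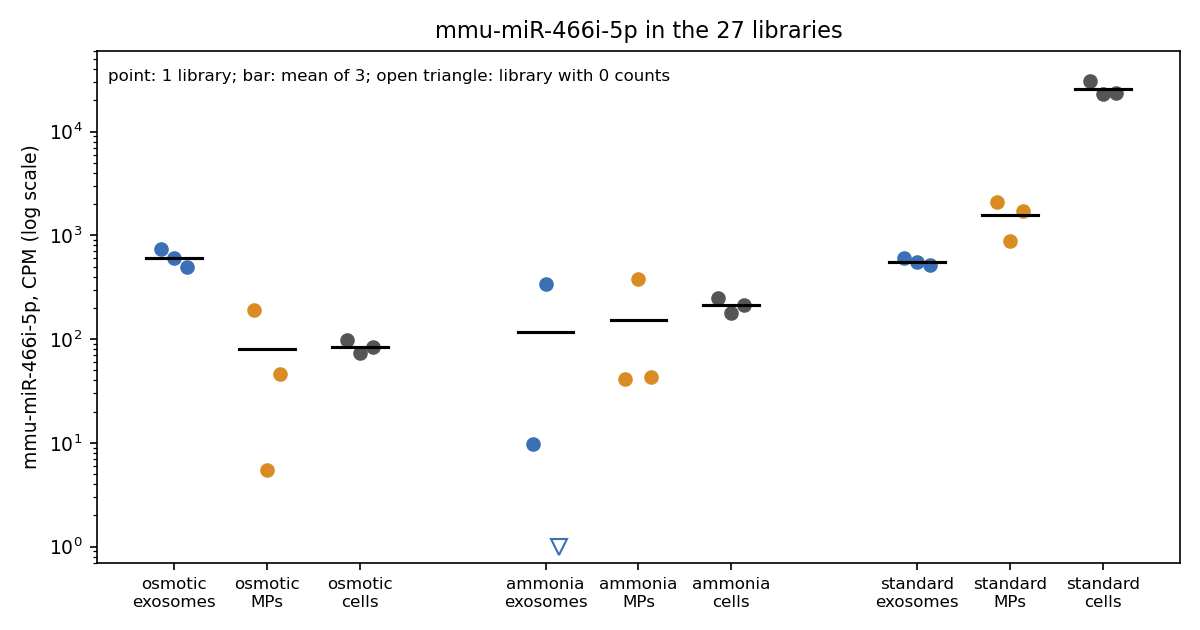
Level of mmu-miR-466i-5p in CPM (log axis) in each of the 27 libraries, by culture and fraction. Points are libraries, bars are means of 3, and an open triangle marks the library with 0 counts. The standard cells, with a mean of 25824 CPM, lie above all other groups, and the stressed MPs and ammonia exosomes are widely spread.

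The question in the standard culture was how vesicle cargo differs from the cells of origin. Counts were tested with edgeR's quasi-likelihood test over 351 entries, of which 5 were cluster entries, and an entry passed at a Benjamini-Hochberg adjusted p under 0.05. The filter on low counts can keep an entry through a single group in which it is high. The counts below thus describe these 5 entries and not the 81. The entry mmu-miR-1187 averaged 2.87 CPM in exosomes, 2.45 CPM in MPs and 78.7 CPM in cells. For rno-miR-466b-3p no MP library exceeded 14.7 CPM, no exosome library 7.34 CPM, and no cell library was below 33.2 CPM. Both can have entered mainly through cells, which would largely fix their direction against cells. Their adjusted p-values against cells, and the counts and medians over the 5, are a description only. The fit's biological coefficient of variation was 0.301.

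In exosomes against cells 4 of the 5 fell and 0 rose, mmu-miR-1187 and rno-miR-466b-3p among the 4, where 24.8% of all tested entries fell. The entry mmu-miR-466i-5p changed by a log2 fold change of −5.73 ± 0.31 (SE, edgeR adjusted p = 6.73e-09). By mean CPM, which lacks the scaling of the test, its level was 46.6-fold lower in exosomes. The 3p-arm entry mmu-miR-466f-3p changed by −2.60 ± 0.39 (edgeR adjusted p = 7.61e-05), and rno-miR-466b-3p by −3.05 ± 0.65 (edgeR adjusted p = 0.00136). The look-alike mmu-miR-1187 changed by −4.90 ± 0.93 (edgeR adjusted p = 5.88e-04). The remaining entry, mmu-miR-466h-3p, had −1.51 ± 0.66 and did not pass (edgeR adjusted p = 0.0694), though it did in DESeq2 (−1.55, adjusted p = 0.0369). The median log2 fold change was −3.05 over the 5 and 0.09 over all 351 entries.

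In MPs against cells the same 4 of the 5 fell again and 0 rose, where 15.7% of all tested entries fell. By mean CPM mmu-miR-466i-5p was 16.6-fold lower in MPs, and its log2 fold change in the test was −4.11 ± 0.29 (SE, edgeR adjusted p = 1.35e-07). Those of mmu-miR-466f-3p, −1.40 ± 0.38 (edgeR adjusted p = 0.0124), and rno-miR-466b-3p, −2.19 ± 0.65 (edgeR adjusted p = 0.0209), were smaller. That of mmu-miR-1187 was −5.14 ± 1.02 (edgeR adjusted p = 0.00194), and mmu-miR-466h-3p had −1.73 ± 0.69 (edgeR adjusted p = 0.0712) and passed in DESeq2 (−1.81, adjusted p = 0.0295). The median was −2.19 over the 5 and 0.07 over all 351 entries. Both fractions were set against the same 3 cell libraries. The calls of mmu-miR-466f-3p and rno-miR-466b-3p in MPs depended on single libraries. Without MP replicate 2 the adjusted p-values of this edgeR test were 0.0643 and 0.0786, without MP replicate 3 0.0525 and 0.0638, without cell replicate 1 0.0570 and 0.0781, and without cell replicate 2 0.0550 and 0.0652, so that 2 entries passed in each case. With no filter on low counts rno-miR-466b-3p had −1.999 (edgeR adjusted p = 0.0712).

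In exosomes against MPs 2 of the 5 fell and 0 rose, where 16% of all tested entries fell. These were mmu-miR-466i-5p, with a log2 fold change of −1.63 ± 0.26 (SE, edgeR adjusted p = 8.28e-04), and mmu-miR-466f-3p, with −1.20 ± 0.36 (edgeR adjusted p = 0.0219). Of these, mmu-miR-466f-3p did not pass without MP replicate 1, MP replicate 3, exosome replicate 1 or exosome replicate 3, with edgeR adjusted p of 0.0813, 0.0502, 0.0530 and 0.0678. The values were −0.86 for rno-miR-466b-3p, 0.22 for mmu-miR-466h-3p and 0.24 for mmu-miR-1187, none of which passed. The median was −0.86 over the 5 and 0.01 over all 351 entries.

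**Figure D2:**
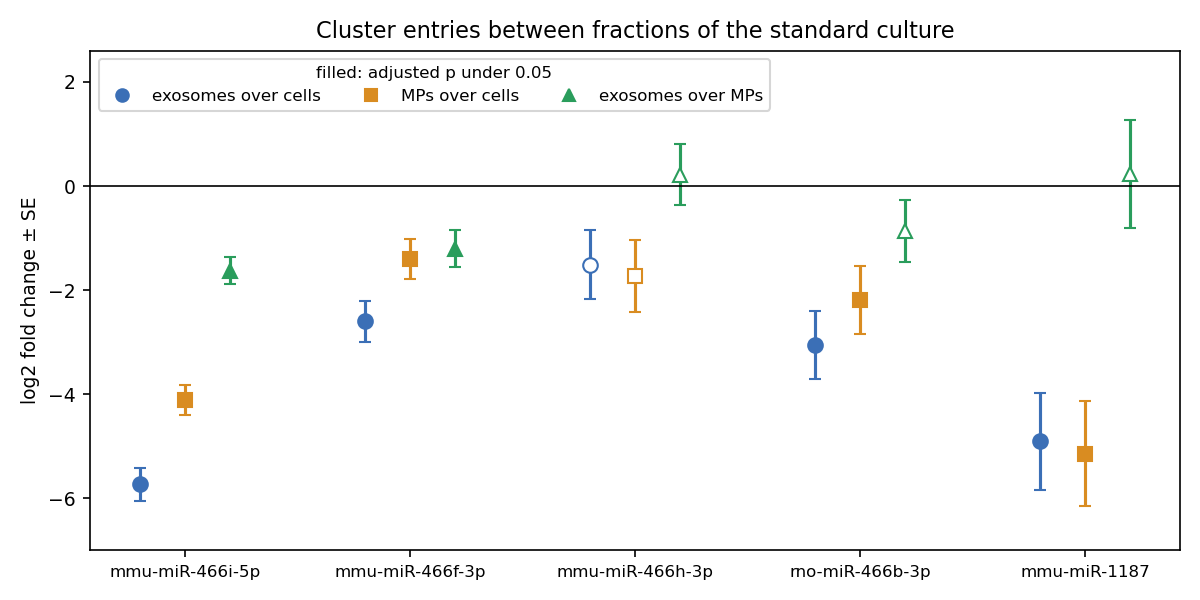
Log2 fold change with its SE for the 5 tested cluster entries in the 3 comparisons of the standard culture, from edgeR on 3 libraries a group. Filled symbols passed at an adjusted p under 0.05. For mmu-miR-466i-5p the value was −5.73 in exosomes over cells and −4.11 in MPs over cells, against −2.60 and −1.40 for mmu-miR-466f-3p.

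The levels behind these tests rest on small counts. For mmu-miR-466f-3p the counts were 76, 140 and 84 in exosomes, 97, 74 and 91 in MPs and 43, 37 and 18 in cells. These are 39.6 ± 10.2 CPM in exosomes, 84.3 ± 30.1 CPM in MPs and 217 ± 103 CPM in cells (SD, n = 3 each), and its 3 groups did not overlap, although the lowest cell library, at 119.6 CPM, was close to the highest MP library, at 118.5 CPM. For rno-miR-466b-3p the counts were 9, 20 and 16 in exosomes, 12, 6 and 13 in MPs and 8, 7 and 5 in cells. Its level in every cell library, at least 33.2 CPM, was above all 6 vesicle libraries, which reached at most 14.7 CPM.

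For mmu-miR-1187 the counts were 13, 8 and 0 in exosomes, 4, 2 and 1 in MPs and 11, 12 and 13 in cells. The level was 2.87 ± 2.85 CPM in exosomes, 2.45 ± 2.15 CPM in MPs and 78.7 ± 10.7 CPM in cells (SD, n = 3 each), and all vesicle libraries lay below all cell libraries. For mmu-miR-466h-3p, the arm opposite the undetected miR-466h-5p, the counts were 15, 33 and 38 in exosomes, 9, 7 and 12 in MPs and 6, 5 and 2 in cells. Exosome and cell libraries of this entry overlapped, at 6.56 to 15.4 CPM in exosomes and 13.3 to 45.4 CPM in cells.

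**Figure D3:**
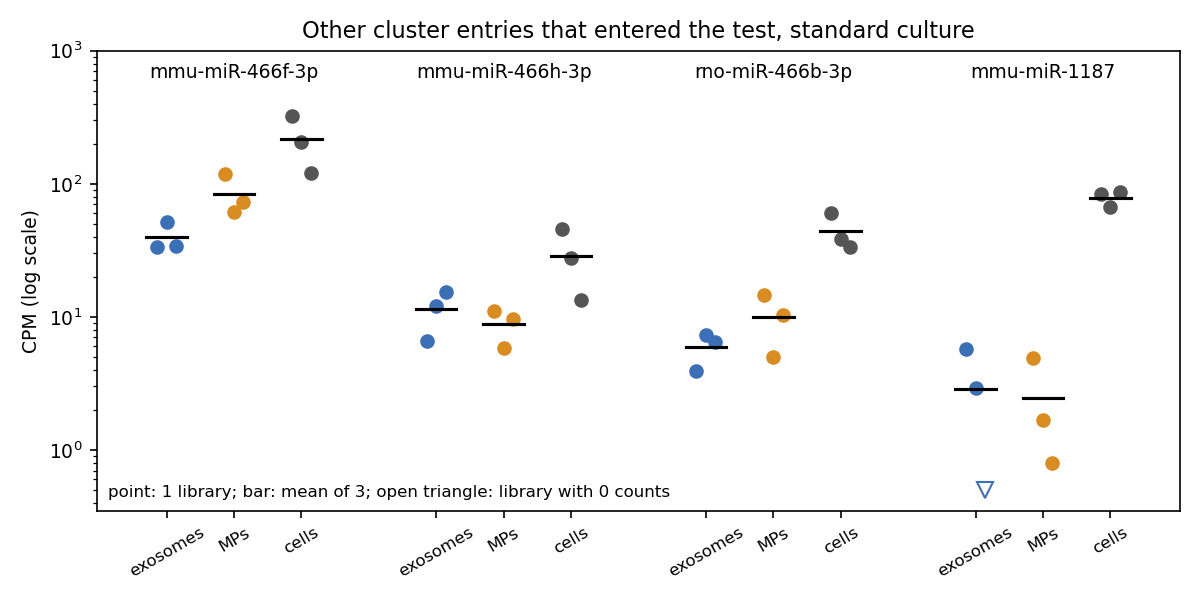
CPM (log axis) of the other 4 tested cluster entries in the standard culture. Points are libraries, bars are means of 3, and an open triangle marks a library with 0 counts. The exosome and cell libraries overlap for mmu-miR-466h-3p and do not overlap for the other entries shown.

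Entries too rare to test rest on few counts. The entry mmu-miR-669n had 6 counts and mmu-miR-297a-5p 5 counts, all in standard cells. Against the exosome floor of 3 counts over the group, the mean in cells was 35.4-fold higher for mmu-miR-669n and 26.4-fold higher for mmu-miR-297a-5p. Against the MP floor it was 15.5-fold higher for mmu-miR-669n and 11.5-fold higher for mmu-miR-297a-5p. With 6 and 5 counts in cells, these values are not lower bounds. The groups overlapped for both entries, since each had 1 cell library at 0. Other rare entries had most of their counts in vesicles, which were sequenced more deeply, so their mean CPM is given too. The entry mmu-miR-466m-3p had 13 counts in exosomes, 0 in MPs and 5 in cells, and rno-miR-466c-3p had 8 in exosomes, 0 in MPs and 1 in cells. For mmu-miR-466i-3p there were 8 counts in exosomes, 11 in MPs and 4 in cells, and for mmu-miR-669c-3p 4 in exosomes, 4 in MPs and 7 in cells. By mean CPM these were all highest in cells. In exosomes, MPs and cells mmu-miR-466m-3p stood at 1.61, 0 and 12.6 CPM and rno-miR-466c-3p at 0.978, 0 and 2.21 CPM. The entry mmu-miR-466i-3p stood at 1.03, 3.53 and 9.47 CPM and mmu-miR-669c-3p at 0.513, 1.24 and 15.3 CPM. So did rno-miR-466b-2-3p, with 2, 3 and 3 counts, at 0.292, 0.939 and 6.58 CPM. The entries mmu-miR-467f, with 4 counts in exosomes and 1 in MPs, and mmu-miR-466q, with 3 in MPs, were at 0 in cells.

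Ratios between entries of the same library do not depend on its scaling, and mmu-miR-466i-5p was lower in vesicles also per count of the 3p-arm entry mmu-miR-466f-3p. Counts of mmu-miR-466i-5p per count of mmu-miR-466f-3p were 18.0, 10.7 and 15.1 in exosomes, 17.7, 14.1 and 23.5 in MPs and 95.0, 113 and 196 in cells. Both vesicle fractions lay below all cell libraries, and the exosome and MP ratios overlapped each other. The exact permutation test (two-sided) gave p = 0.1 for each fraction against cells, the smallest p that 3 against 3 libraries allow. The ratio of mmu-miR-466f-3p to mmu-miR-466h-3p was 5.07, 4.24 and 2.21 in exosomes, 10.8, 10.6 and 7.58 in MPs and 7.17, 7.40 and 9.00 in cells. It was lower in exosomes than in cells without overlap (exact permutation p = 0.1), and MPs and cells overlapped (exact permutation p = 0.2). Set against mmu-miR-1187 instead, mmu-miR-466i-5p stood higher in MPs, at 430, 524 and 2135, than in cells, at 371, 348 and 271 (exact permutation p = 0.1), with 4, 2 and 1 counts of mmu-miR-1187 in the MP libraries. In exosomes this ratio was 105 and 187 in the 2 libraries with counts of mmu-miR-1187. The direction of a ratio thus depended on the entry it was set against, and over these 5 tests the Benjamini-Hochberg adjusted p was 0.125 where the exact p was 0.1 and 0.2 for the other.

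Outside the cluster, a single miRNA and a list were set beside it. The entry mmu-miR-574-5p, which is also rich in GU repeats but lies at another locus, averaged 876 ± 154.035 CPM in exosomes, 916 ± 143 CPM in MPs and 2332 ± 145 CPM in cells (SD, n = 3 each). Its log2 fold change was −1.63 ± 0.21 in exosomes against cells (SE, edgeR adjusted p = 2.76e-05) and −1.40 ± 0.21 in MPs against cells (edgeR adjusted p = 2.31e-04). The Dlk1-Dio3 miRNAs, another large imprinted cluster, had 192 entries. Of the 11 tested, 4 rose and 0 fell in exosomes against cells, where 94 of all 351 entries rose and 87 fell. In MPs against cells 1 of the 11 rose and 0 fell, where 55 of the 351 rose and 55 fell. Whether the cluster differs from these sets was not tested.

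In the stressed cultures mmu-miR-466i-5p was the only cluster entry that passed the filter on low counts. Its counts were 117, 30 and 13 in osmotic exosomes, 72, 6 and 45 in osmotic MPs and 809, 603 and 863 in osmotic cells. They were 2, 52 and 0 in ammonia exosomes and 1427, 1228 and 1126 in ammonia cells, and the ammonia MP libraries stood at 41.1, 379.2 and 42.8 CPM. The cell libraries of each culture were close to each other in CPM, and so were the osmotic exosome libraries, at 737, 600.1 and 490 CPM. The other vesicle groups were uneven. Ammonia exosome replicate 2 stood at 338 CPM against 9.81 and 0 CPM in the other 2, and osmotic MP replicate 2 at 5.43 CPM against 190 and 46.2 CPM.

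The stressed fit had a biological coefficient of variation of 1.38, a spread shared over all 18 libraries, the uneven vesicle groups included. The entry mmu-miR-466i-5p passed in 0 of the 9 comparisons of this fit, none of which gave an unadjusted p under 0.05 either. DESeq2 made 2 calls, both given below. In osmotic exosomes against osmotic cells the level was 609 ± 123.4 CPM in exosomes and 84.8 ± 12.9 CPM in cells (SD, n = 3 each), with no overlap. The edgeR log2 fold change of mmu-miR-466i-5p was 3.14 ± 1.86 (adjusted p = 0.219), where 0% of the 332 tested entries passed, and DESeq2 gave 4.92 (adjusted p = 0.00215). Of all tested entries, 2.41% were higher in exosomes without overlap. In osmotic exosomes against osmotic MPs edgeR gave 2.46 ± 1.81 (adjusted p = 0.411), where 2.41% of entries passed, and DESeq2 gave 3.94 (adjusted p = 0.00906). In osmotic MPs against osmotic cells edgeR gave 0.68 ± 1.72 (adjusted p = 0.744), where 51.5% of entries passed.

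The osmotic exosome level depended on what it was set against. Per count of mmu-miR-574-5p in the same library, mmu-miR-466i-5p stood at 0.0213, 0.0322 and 0.0360 in osmotic exosomes and at 0.0337, 0.0389 and 0.0240 in osmotic cells. These ranges overlap, whereas the CPM did not. The level of mmu-miR-574-5p itself averaged 22280 CPM in osmotic exosomes and 2753 CPM in osmotic cells. The exosome libraries held 26516 to 158836 counts and the cell libraries 8219782 to 10374430, and the part of depth in the CPM difference was not tested.

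Whether the vesicle minus cell difference of mmu-miR-466i-5p changed between osmotic and standard culture was tested by interaction terms, which span both kits and were added after seeing the data. The term was 7.99 ± 1.98 on the log2 scale for exosomes (SE, edgeR adjusted p = 0.0187), where 10% of 420 entries passed, 5 higher and 37 lower. For MPs it was 4.73 ± 1.85 (edgeR adjusted p = 0.0449), where 38.6% passed, 12 higher and 150 lower. The MP term did not pass in 11 of 12 fits that left out 1 library. In the same fit the osmotic over standard log2 fold change of mmu-miR-466i-5p was 0.54 in exosomes, −2.73 in MPs and −7.45 in cells. Both terms thus hold the large difference between cells of the 2 kits.

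In ammonia culture edgeR called no difference between the fractions. For ammonia MPs against ammonia cells edgeR gave a log2 fold change of −0.22 ± 1.71 (adjusted p = 0.982), where 32.5% of entries passed. For ammonia exosomes against ammonia cells it gave −0.79 ± 1.73 (edgeR adjusted p = 0.719), where 9.04% passed, and for ammonia exosomes against ammonia MPs −0.57 ± 1.72 (edgeR adjusted p = 0.998), where 0.301% passed. The signs of these 3 values turned under other settings or without single libraries.

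Osmotic and ammonia cultures were compared within 1 kit and 1 pool. In cells mmu-miR-466i-5p stood at 98.4, 72.8 and 83.2 CPM in osmotic culture and at 247, 179 and 215 CPM in ammonia culture, without overlap. The edgeR log2 fold change was −1.66 ± 1.75 (adjusted p = 0.997), where 0% of entries passed and 4.82% were lower without overlap. The fit shares its spread with the uneven vesicle groups, while these cell groups were at 84.8 ± 12.9 and 214 ± 34.0 CPM (SD). The missing call thus does not show that the cell levels are alike. In the authors' deposited table the same contrast of mmu-miR-466i-5p has a log2 fold change of −1.78 with a false discovery rate p of 1.05e-06. For MPs edgeR gave −0.75 ± 1.72 (adjusted p = 1), where 19.3% passed, and for exosomes 2.27 ± 1.80 (adjusted p = 0.610), where 0% passed. The look-alike mmu-miR-1187 was uneven among ammonia cell libraries, with 0, 209 and 5 counts, against 10, 10 and 4 counts in osmotic cells.

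Against the standard culture, cluster entries that passed were all lower, in a comparison that cannot be told apart from the change of kit. Of the 5 cluster entries in this fit, only mmu-miR-466i-5p passed the filter on low counts among the stressed libraries alone. The others entered through standard groups in which they are high, so their direction was largely fixed by the filter. The counts of entries in these 6 comparisons, printed with the share over all entries, are a description only. The same goes for the adjusted p-values of these other entries. In osmotic cells 4 of 5 tested entries fell, where 8.81% of 420 tested entries did. The level of mmu-miR-466i-5p was 84.8 CPM in osmotic cells and 25824 CPM in standard cells (log2 fold change −7.45 ± 1.64, SE, edgeR adjusted p = 0.00234). The entry mmu-miR-466f-3p had 0 counts in osmotic cells, and its standard cell mean was 1940-fold above the osmotic cell floor of 3 counts. For rno-miR-466b-3p, also at 0 counts there, the standard cell mean was 396-fold above that floor. Such values, here and below, take the standard mean as measured and are not lower bounds. The entry mmu-miR-466h-3p changed by −6.46 ± 1.64 (edgeR adjusted p = 0.0129), a call lost without standard cell replicate 1 or 2 or osmotic cell replicate 1 or 2 (adjusted p of 0.0801, 0.0631, 0.0563 and 0.0577). The entry mmu-miR-1187 had −5.55 ± 2.04 and did not pass (edgeR adjusted p = 0.0632), though it did in DESeq2 (−6.96, adjusted p = 0.00846) and with RLE scaling (adjusted p = 0.0394).

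In ammonia cells 4 of 5 fell, where 14% of entries did. The level of mmu-miR-466i-5p was 214 CPM in ammonia cells and 25824 CPM in standard cells (log2 fold change −5.77 ± 1.52, SE, edgeR adjusted p = 0.00685). The others, at 0 counts in ammonia cells, were mmu-miR-466f-3p, rno-miR-466b-3p and mmu-miR-466h-3p. Their standard cell means were 1288-fold, 263-fold and 171-fold above the ammonia cell floor. The fitted value for mmu-miR-1187 was −1.92 (edgeR adjusted p = 0.442). The GU-rich comparator mmu-miR-574-5p did not pass in either comparison, with 2753 CPM in osmotic cells and 4682 CPM in ammonia cells against 2332 CPM in standard cells. Per count of mmu-miR-574-5p, mmu-miR-466i-5p stood between 0.0240 and 0.0389 in osmotic cells, between 0.0374 and 0.0626 in ammonia cells and between 9.39 and 13.9 in standard cells.

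In vesicles the cluster's most abundant entry did not pass against standard culture. For mmu-miR-466i-5p in MPs the edgeR log2 fold change was −2.73 ± 1.33 (adjusted p = 0.0922) in osmotic against standard culture and −1.75 ± 1.28 (adjusted p = 0.254) in ammonia against standard culture. In exosomes it was 0.54 ± 1.25 (edgeR adjusted p = 0.760) in osmotic against standard culture and −1.21 ± 1.27 (edgeR adjusted p = 0.447) in ammonia against standard culture. DESeq2 called both MP comparisons, with −3.56 (adjusted p = 0.00149) in osmotic MPs and −3.35 (adjusted p = 0.00309) in ammonia MPs. Both also passed in edgeR with RLE scaling (adjusted p of 0.0234 in osmotic and 0.0303 in ammonia MPs). What passed in the edgeR test with TMM scaling were 3p-arm entries at 0 counts in the stressed vesicles.

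In osmotic MPs 2 of 5 tested entries fell, where 37.9% of entries did, and these were mmu-miR-466f-3p and rno-miR-466b-3p. Their standard MP means were 69.0-fold and 8.20-fold above the osmotic MP floor. A single entry passed without standard MP replicate 1, standard MP replicate 3, osmotic MP replicate 2 or osmotic MP replicate 3. In ammonia MPs 3 of 5 fell, where 32.4% did. These were mmu-miR-466f-3p, rno-miR-466b-3p and mmu-miR-466h-3p, with standard MP means 211-fold, 25.0-fold and 22.0-fold above the ammonia MP floor. In osmotic exosomes 1 of 5 fell, where 12.1% did, and in ammonia exosomes 1 of 5, where 26.4% did. In both it was mmu-miR-466f-3p, whose standard exosome mean was 3.10-fold above the osmotic exosome floor and 6.25-fold above the ammonia exosome floor. The osmotic exosome call was lost, to 0 of 5, without any one of its 6 libraries, and in ammonia exosomes 2 entries passed without ammonia exosome replicate 2.

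By mean CPM over the 9 groups, mmu-miR-466i-5p was highest in standard cells, then standard MPs at 1560 CPM, then osmotic exosomes at 609 CPM and standard exosomes at 554 CPM, whose libraries overlap. Then came ammonia cells at 214 CPM, ammonia MPs at 154.4 CPM, ammonia exosomes at 116 CPM, osmotic cells at 84.8 CPM and osmotic MPs at 80.7 CPM, and each of these overlaps the next. Libraries were apart between standard cells and standard MPs, between standard MPs and osmotic exosomes, and between standard exosomes and ammonia cells. Levels from the 2 kits are set side by side here and were not made comparable by the deposited processing.

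**Figure D4:**
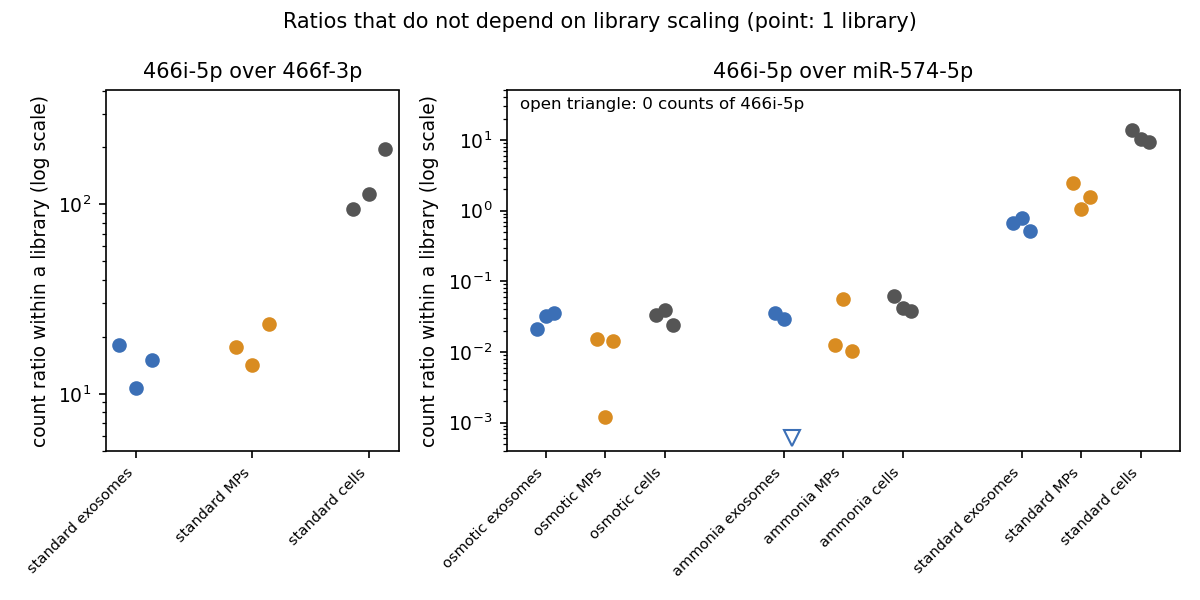
Left, counts of mmu-miR-466i-5p per count of mmu-miR-466f-3p within each standard library, and right, counts of mmu-miR-466i-5p per count of mmu-miR-574-5p in each of the 27 libraries (log axes, points are libraries, the open triangle is a library with 0 counts of mmu-miR-466i-5p). On the left the vesicle libraries reach at most 23.5 and the cell libraries start at 95.0, and on the right the osmotic exosomes and osmotic cells overlap.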

How the data were processed

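The authors deposited a table of read counts, in whole numbers, for each mature miRNA. Per the file headers, reads of one mature sequence were grouped, and the stressed libraries had reads trimmed and limited in length. The submitters' processing notes list FastQC 0.10.1, cutadapt 2.8 and the builds Rnor_6.0, GRCm38 and GRCh38. No source used here names the counting tool. Columns the authors deposited as CPM are a normalised signal, the count over an effective library size (relative deviation at most 7.43e-10), and served as an alternative scaling. The authors' deposited table of 18 contrasts gives a log2 fold change and a p-value per entry, cited where named. Its 54 columns of values per sample were not used.

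Tests on the counts used edgeR 4.0.16 under R 4.3.3, with the quasi-likelihood F test, TMM factors and the filterByExpr filter. The 18 comparisons came from fits of the 9 standard, the 18 stressed or all 27 libraries, and each SE from the F statistic. The scripts were tested on simulated data. Alternatives were RLE scaling, library size alone, the authors' sizes, no filter, a replicate block, DESeq2 1.42.0 and leaving out each library. Named are entries of at least 50 CPM in a group, miR-466h-5p and entries that passed. The entries and lists were chosen with earlier results of these data known. Replicates differed beyond sampling noise, and no 2 libraries were merged.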

Additional observations from a re-analysis of the deposited data

Results flagged for a closer look

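For mmu-miR-466i-5p the vesicle minus cell difference between osmotic and standard culture was tested by interaction terms, which span both kits and were added after seeing the data. Both passed, the one for MPs in few other settings. For exosomes the term was 7.99 ± 1.98 on the log2 scale (SE, edgeR adjusted p = 0.0187). It passed in 9 of 12 fits that left out 1 library, with adjusted p from 0.0283 to 0.0599, and was lost without standard cell replicate 2, standard cell replicate 3 or osmotic cell replicate 2 (adjusted p of 0.0599, 0.0515 and 0.0561). For MPs it was 4.73 ± 1.85 (edgeR adjusted p = 0.0449), and it passed in 1 of 12 such fits, the one without osmotic MP replicate 2 (adjusted p = 0.0378, against 0.0756 to 0.190 in the others). The MP term was also lost with the replicate block (4.64, adjusted p = 0.0604), with library size alone (3.97, adjusted p = 0.0663) and with no filter on low counts (4.73, adjusted p = 0.0975), and it passed with RLE scaling (adjusted p = 0.0241) and the authors' sizes (adjusted p = 0.0351). The median over all 420 entries was −4.65 for exosomes and −6.11 for MPs. Of the 420 entries, 5 passed as higher and 37 as lower for exosomes, and 12 as higher and 150 as lower for MPs. The matching terms for ammonia culture did not pass, at 4.56 (edgeR adjusted p = 0.0775) for exosomes and 4.03 (edgeR adjusted p = 0.115) for MPs.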

How the results depend on the processing

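Of the 18 counts of cluster entries that passed, 14 to 17 stayed within 1.5 times the main count under each of the 6 other settings. The counts between stressed groups were each 0 of 1 tested entry, and 0 against 0 was taken as unchanged. Part of this stability was thus easily reached. In exosomes over MPs of standard culture, 1 entry passed with the authors' sizes. DESeq2 gave 1 in osmotic exosomes over osmotic cells and 1 over osmotic MPs. In osmotic over standard cells 9 passed with no filter on low counts. In osmotic over standard MPs 4 passed with RLE scaling, 4 with library size alone, 4 with the authors' sizes and 1 with no filter. In osmotic over standard exosomes 0 passed with RLE scaling, the authors' sizes, no filter or DESeq2, and in ammonia over standard exosomes 0 passed with the authors' sizes, no filter or DESeq2. No cause was tested. The main fits did not pair libraries by replicate number, since in none of the 18 comparisons did all 3 same-numbered pairs correlate above 0.1. This does not show that they are unpaired. In standard exosomes over MPs the correlations were 0.195, 0.128 and 0.0727, and each exosome library correlated best with the MP library of its own number. Libraries also correlated best with their own number in standard MPs over cells, with correlations of 0.121, 0.0985 and 0.0286. The same held in osmotic exosomes over osmotic cells and in osmotic over ammonia cells. In the remaining comparisons, such as standard exosomes over cells, it did not hold. With the replicate block 1 entry passed in osmotic over standard MPs and 0 in osmotic over standard exosomes, and the MP interaction was 4.64 (edgeR adjusted p = 0.0604). Leaving out single libraries gave 2 to 4 entries in MPs over cells and 1 to 2 in exosomes over MPs of standard culture, 1 to 2 in osmotic over standard MPs, 0 to 0 in osmotic over standard exosomes and 1 to 2 in ammonia over standard exosomes.

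The sign turned mostly for values of mmu-miR-466i-5p that had not passed. It was −0.079 in osmotic MPs over cells with library size alone and 1.88 in ammonia MPs over cells with no filter. In ammonia exosomes over cells it was 0.55 with RLE scaling, 0.068 with the authors' sizes, 1.58 with no filter and 0.61 with DESeq2, and over ammonia MPs 0.89, 0.31 and 0.95 with RLE scaling, the authors' sizes and DESeq2. Without single libraries it ran from −0.65 to 1.31 in osmotic MPs over cells, −1.81 to 0.13 in ammonia MPs over cells, −5.66 to 1.01 in ammonia exosomes over MPs, −2.37 to 0.89 in osmotic over ammonia MPs and −0.047 to 0.47 in osmotic over standard exosomes. The osmotic minus ammonia interaction for MPs ran from −0.69 to 2.56, and the ammonia minus standard one for exosomes from −0.55 to 4.64. In standard exosomes over MPs mmu-miR-466h-3p ran from −0.0056 to 0.47 and mmu-miR-1187 from −0.64 to 0.97, and mmu-miR-1187 in ammonia over standard MPs from −2.001 to 3.24. The other scalings moved the median over all tested entries by −1.56 to 3.46. With the authors' sizes, 120 entries rose and 63 fell in standard exosomes over cells (94 and 87 otherwise), and 80 rose and 47 fell in standard MPs over cells (55 and 55 otherwise).

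Depth limits entries at 0 most in osmotic exosomes, ammonia exosomes and standard cells. Without mmu-miR-466i-5p, single entries rest on few counts.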
